A study of Mus musculus with 18 samples.

Results

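The respiratory chain subunits were followed in liver and epididymal adipose tissue of mice on 3 diets. Members were all probes whose gene symbol names a structural subunit of complex I (Ndufa, Ndufb, Ndufc, Ndufs and Ndufv genes), complex II (Sdha to Sdhd), complex III (Uqcr genes and Cyc1), cytochrome c (Cycs), complex IV (Cox4 to Cox8 genes) or complex V (Atp5 genes). This gave 76 genes with 105 probes, out of 14422 genes with 22883 probes. Complex I had 34 genes, complex II 4, complex III 7, cytochrome c 1, complex IV 14 and complex V 16. A symbol of this form does not always name a subunit of that complex: Cox7a2l is known as a supercomplex assembly factor, Ndufa4 is now placed in complex IV, and Ndufs5-ps is named as a pseudogene.

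Messenger RNA was measured on 18 Illumina bead arrays, 3 per diet in each tissue, from male C57BL/6J mice, a strain that 1 label field spells C56BL/6J, bought at 4 weeks of age and acclimated for 1 week. LU mice ate the HFD feed to which luteolin, a flavonoid found in vegetables, was added at 0.005% (w/w). HFD mice ate 20% fat and 1% cholesterol, and ND mice ate a normal diet. Each diet lasted 16 weeks, and the groups held 13 LU, 13 HFD and 10 ND mice. No source used here ties an array to a mouse or a pool of mice. The p-values therefore reflect how far these samples differ from each other, and part of that spread may be technical.

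Complexes I and II pass electrons from NADH and succinate to ubiquinone, complex III passes them on to cytochrome c, and complex IV hands them to oxygen. The proton gradient built on the way drives ATP synthesis by complex V, and in brown fat it is also dissipated as heat. Liver is rich in mitochondria, whereas white adipocytes hold few and use them in lipid synthesis and breakdown. The mitochondrial genome encodes 13 further core subunits, and 0 of them had a named probe.

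A short motif was found in the promoters of some members, and is shown here for a subunit of complex I, complex III, cytochrome c and complex V whose values are described below, with the Cox8b promoter as a member without it. Each window runs from 250 bases before to 50 bases after the RefSeq gene start on GRCm38.p6, 5′ to 3′. Capitals mark matches to GCGCANGCG, the motif bound by NRF1, a transcription factor of nuclear mitochondrial genes, found on either strand.
Ndufb10 (chr17:24724374-24724673, minus strand): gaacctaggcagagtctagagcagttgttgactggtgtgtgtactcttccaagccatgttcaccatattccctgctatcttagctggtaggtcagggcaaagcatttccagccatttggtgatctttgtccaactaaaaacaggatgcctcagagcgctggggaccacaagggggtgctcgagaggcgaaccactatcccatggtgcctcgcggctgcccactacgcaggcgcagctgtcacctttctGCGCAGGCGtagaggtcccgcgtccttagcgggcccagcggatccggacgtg
Uqcrc1 (chr9:108936398-108936697, plus strand): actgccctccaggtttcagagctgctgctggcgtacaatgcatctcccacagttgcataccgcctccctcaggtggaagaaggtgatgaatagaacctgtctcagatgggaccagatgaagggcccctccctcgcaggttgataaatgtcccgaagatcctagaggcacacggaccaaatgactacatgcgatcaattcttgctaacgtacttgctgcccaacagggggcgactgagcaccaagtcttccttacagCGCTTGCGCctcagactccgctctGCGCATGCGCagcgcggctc
Cycs (chr6:50566520-50566819, minus strand): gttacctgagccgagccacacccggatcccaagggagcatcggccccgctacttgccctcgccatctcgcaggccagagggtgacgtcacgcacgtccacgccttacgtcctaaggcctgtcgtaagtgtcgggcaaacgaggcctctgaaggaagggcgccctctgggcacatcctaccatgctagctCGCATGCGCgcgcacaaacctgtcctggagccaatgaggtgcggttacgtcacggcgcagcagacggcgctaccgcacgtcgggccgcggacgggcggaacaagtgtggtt
Atp5c1 (chr2:10080383-10080682, minus strand): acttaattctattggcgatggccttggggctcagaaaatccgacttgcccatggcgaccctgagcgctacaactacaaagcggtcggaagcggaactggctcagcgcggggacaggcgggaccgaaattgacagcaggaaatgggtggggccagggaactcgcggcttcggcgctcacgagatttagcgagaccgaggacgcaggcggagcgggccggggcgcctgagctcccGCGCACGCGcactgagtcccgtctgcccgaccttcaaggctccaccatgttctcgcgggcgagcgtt
Cox8b (chr7:140900397-140900696, minus strand): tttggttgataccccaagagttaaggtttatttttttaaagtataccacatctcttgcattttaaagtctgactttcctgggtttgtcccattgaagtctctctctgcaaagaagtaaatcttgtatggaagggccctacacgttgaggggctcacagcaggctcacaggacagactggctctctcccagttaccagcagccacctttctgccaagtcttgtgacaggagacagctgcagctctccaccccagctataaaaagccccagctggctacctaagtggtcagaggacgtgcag

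A RefSeq promoter was found for 63 of the 76 members, and the 13 without an entry were Atp5a1, Atp5mpl, Cox4i1, Cox4i2, Cox6a2, Cox6c, Cyc1, Ndufa2, Ndufb9, Ndufs5-ps, Sdhc, Uqcrc2 and Uqcrq. The NRF1 motif stood in 20 of the 63 (31.7%), against 7.03% of 27025 genes with a promoter window and 6.25% of 32851 windows. By complex it was found in 7 of 31 genes of complex I, 2 of 3 of complex II, 2 of 4 of complex III, Cycs, 1 of 10 of complex IV and 7 of 14 of complex V. The motif TNAAGGTCA, bound by the oestrogen-related receptor ERR alpha and searched on both strands, stood in 3 of 63 members (4.76%), Atp5g3, Ndufb4 and Sdhd, against 1.43% of genes. These are letter matches in a short window and not measured sites.

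Per array, 15464 to 16998 probes were detected in liver and 19113 to 19852 in adipose tissue (detection p under 0.05), the median signal was 150 to 159.7 and 193.5 to 215.8, and arrays of a group correlated at r = 0.9935 or above in liver and 0.992 or above in adipose tissue. Of 16 hepatocyte markers on the array, 14 passed in liver, and Alb, Apoa1 and Ttr were among the 10 that did not pass the detection filter in adipose tissue. Of 14 white adipocyte markers on the array, 14 passed in adipose tissue, while Adipoq, Lep and Plin1 did not pass in liver. Of 6 epididymis and testis markers on the array, 1 passed in adipose tissue, the sperm protamine Prm1, and its summed level was 182.9 to 336.4 in LU, 326.2 to 1202 in HFD and 123.9 to 222.3 in ND.

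A probe entered the tests if it was detected on all 3 arrays of at least 1 diet, and each gene was represented by its brightest such probe. In adipose tissue 74 of the 76 members passed: 34 of complex I, 3 of complex II, 7 of complex III, Cycs, 13 of complex IV and 16 of complex V. In liver 69 passed, and Ndufb11, Sdha, Cox4i2, Cox6a2, Cox6b2, Cox8b and Atp5k did not. Sdha, the flavoprotein of complex II, and Cox4i2, a lung and hypoxia isoform of complex IV, were detected on 0 of 18 arrays. Each was read by 1 probe.

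Most subunits were lower in adipose tissue of HFD mice than of ND mice. Of the 74 members tested, 41 fell and 2 rose, and 31 did not pass. Cox6a2, among the 2 that rose, was undetected on all ND arrays and passed the filter through the other diets alone. Among all 10240 genes tested, 23.9% fell and 21.5% rose. The members' median log2 difference was -0.212, against -0.031 over all genes. The fall covered 22 of 34 genes of complex I, 2 of 3 of complex II, 6 of 7 of complex III, 5 of 13 of complex IV and 6 of 16 of complex V. The count was 36 to 42 called members when any 1 array was left out.

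In complex I, Ndufv1, the flavin-binding subunit where NADH is oxidised, had normalized log2 intensities of 13.81, 13.77 and 13.74 in LU, 13.43, 13.38 and 13.40 in HFD and 13.76, 13.76 and 13.84 in ND adipose tissue. All HFD arrays lay below all LU and all ND arrays, which overlapped with each other. It fell by 0.38 ± 0.06 log2 units (SE) in HFD against ND (limma, Benjamini-Hochberg adjusted p = 0.000545, threshold 0.05). Ndufb9, an accessory subunit of the membrane arm, read 9.72, 9.73 and 9.87 in LU, 9.20, 9.26 and 9.42 in HFD and 9.90, 9.87 and 9.77 in ND. Its difference of -0.56 ± 0.08 was the largest fall in complex I, about 1.47-fold (adjusted p = 0.000386). Ndufs7, which carries an iron-sulphur cluster near the ubiquinone site, fell by 0.53 ± 0.08, and the accessory subunit Ndufb8 fell by 0.44 ± 0.05.

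The remaining 12 complex I genes did not pass in HFD against ND. Ndufb11, an accessory subunit near detection, read 5.87, 5.74 and 6.10 in LU, 6.01, 6.01 and 6.04 in HFD and 6.19, 6.35 and 6.24 in ND, and passed the filter through the ND arrays alone. Its HFD and ND arrays did not overlap, yet the difference of -0.24 ± 0.09 did not pass (adjusted p = 0.058).

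In complex II, Sdhc, a membrane anchor, read 12.86, 12.92 and 13.01 in LU, 12.55, 12.50 and 12.53 in HFD and 12.94, 12.86 and 12.99 in ND adipose tissue. The HFD arrays stood apart below the other diets. It fell by 0.40 ± 0.06 in HFD against ND (adjusted p = 0.000867). Sdhb, the iron-sulphur subunit, fell by 0.45 ± 0.07 (adjusted p = 0.000536), while the anchor Sdhd was at -0.14 ± 0.10 (adjusted p = 0.322).

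In complex III, Uqcrc1, a core subunit, read 12.43, 12.50 and 12.36 in LU, 12.14, 12.12 and 12.13 in HFD and 12.50, 12.60 and 12.41 in ND. The 3 HFD arrays were nearly alike and below all others. It fell by 0.37 ± 0.07 in HFD against ND (adjusted p = 0.00175), as did Cyc1, cytochrome c1, by 0.37 ± 0.07. Uqcrc2, the partner core subunit, averaged 13.70 ± 0.089 in LU, 13.57 ± 0.050 in HFD and 14.04 ± 0.026 in ND (SD, n = 3 each), a fall of 0.47 ± 0.06. Uqcrq was the exception in this complex, at -0.19 ± 0.09 (adjusted p = 0.113). Cycs, the mobile carrier after complex III, showed no detectable difference in adipose tissue, at -0.03 ± 0.07 (adjusted p = 0.761), with overlapping arrays of 12.90, 12.88 and 12.93 in LU, 12.99, 13.01 and 12.87 in HFD and 12.95, 12.90 and 13.13 in ND.

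In complex IV, Cox4i1, the widely expressed form of subunit 4, read 15.01, 15.08 and 15.00 in LU, 14.80, 14.74 and 14.68 in HFD and 15.04, 15.06 and 15.12 in ND. It fell by 0.33 ± 0.06 in HFD against ND (adjusted p = 0.00184), and Cox6c, another subunit without tissue forms, fell by 0.37 ± 0.06. Cox5a, which sits beside the catalytic core, was at -0.02 ± 0.07 (adjusted p = 0.804).

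In complex V, Atp5c1, the rotating gamma subunit of the catalytic head, read 13.85, 13.85 and 13.72 in LU, 13.71, 13.77 and 13.73 in HFD and 14.14, 14.28 and 14.17 in ND. Here the LU arrays stayed with the HFD arrays, below all ND arrays. It fell by 0.46 ± 0.07 in HFD against ND (adjusted p = 0.000478). Atp5h, a stalk subunit, fell by 0.37 ± 0.07, and Atp5g2, a form of the c-ring subunit, by 0.35 ± 0.05. Atp5a1, the alpha subunit, was at -0.08 ± 0.11 with the probe used here (adjusted p = 0.547), although another of its probes was lower by 0.42. Atp5b, the catalytic beta subunit, fell by 0.20 ± 0.06 (adjusted p = 0.0158), a call that was lost without HFD array 2 (adjusted p = 0.0514) or with the LU arrays left out of the fit (adjusted p = 0.0633). The Atp5b signals reached 63693.3 units, near the highest signal on these arrays of 69609.3.

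**Figure D1:**
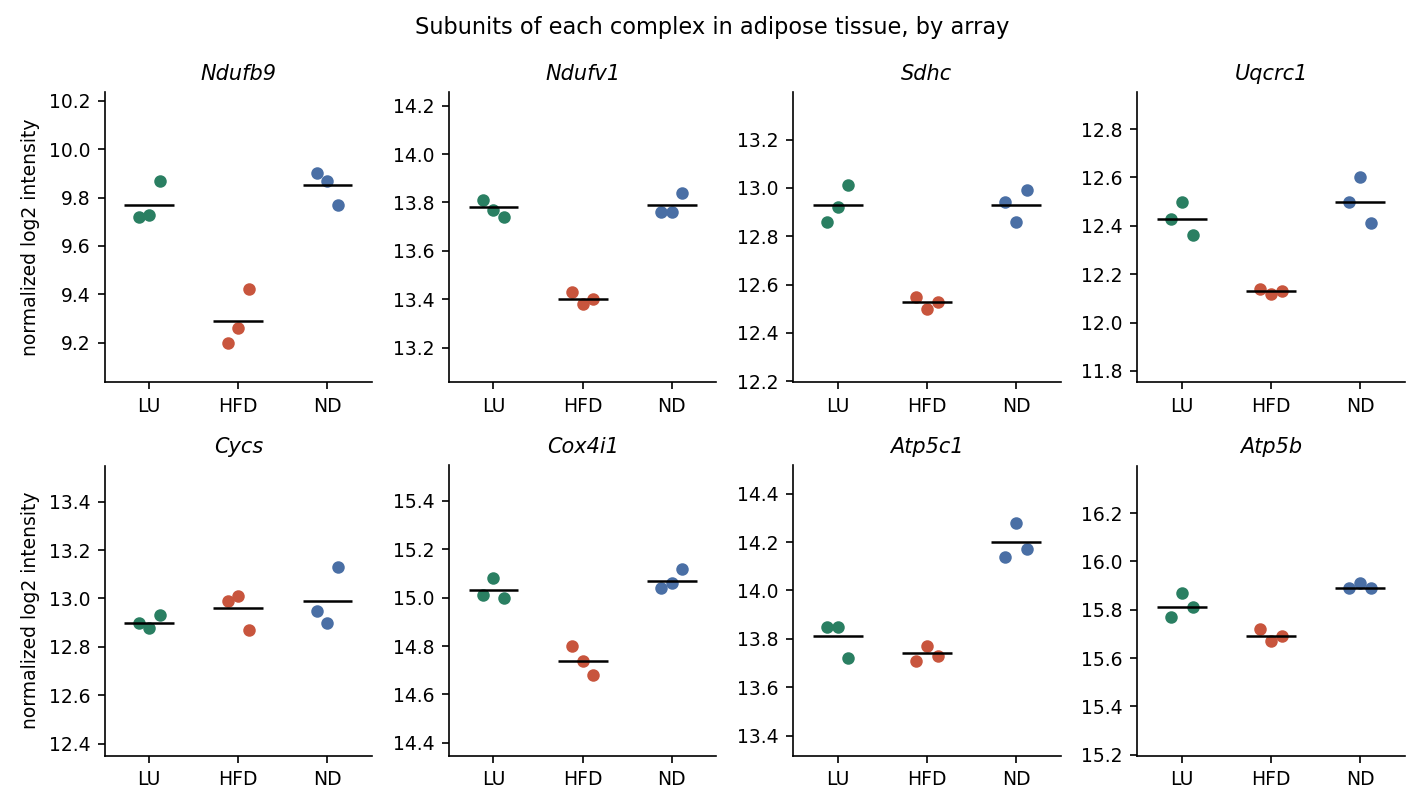
Normalized log2 intensity (y axis, 1.2 units high in each panel) of 8 subunits on each of the 9 adipose tissue arrays, by diet. Points are arrays and bars are means of 3. The HFD points lie below all LU and ND points for Ndufb9, Ndufv1, Sdhc, Uqcrc1 and Cox4i1, while Cycs overlaps throughout and Atp5c1 is high in ND.

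Luteolin-fed mice had higher levels of many of these subunits than HFD mice. Of 74 members tested in adipose tissue, 31 were higher in LU and 1 was lower, and 42 did not pass. Among all genes tested, 16.3% were higher and 15.5% lower. The members' median log2 difference was 0.189, against 0.022 over all genes. The count fell to 20 without HFD array 1, and to 19 without HFD array 2, LU array 1 or LU array 2. This comparison and the one of HFD with ND share the 3 HFD arrays.

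By complex, 13 of 34 complex I genes, 3 of 3 of complex II, 4 of 7 of complex III, 6 of 13 of complex IV and 5 of 16 of complex V were higher in LU than in HFD adipose tissue. In complex II the call of Sdhb (0.23 ± 0.07, adjusted p = 0.025) was lost without HFD array 1 or 3 or LU array 2 or 3 (adjusted p = 0.0612 to 0.10) and with cyclic loess or median scaling (adjusted p = 0.056 and 0.0514). That of Sdhd (0.34 ± 0.10, adjusted p = 0.036) was lost without HFD array 1 or 3 or LU array 1 or 2 (adjusted p = 0.0854 to 0.123) and with cyclic loess (adjusted p = 0.059). In complex I, Ndufb9 rose by 0.48 ± 0.08 (adjusted p = 0.00215), Ndufb10 by 0.47 ± 0.06 (adjusted p = 0.000986) and Ndufv1 by 0.37 ± 0.06 (adjusted p = 0.00178). Ndufa3, a small accessory subunit, rose by 0.38 ± 0.08. Ndufa10, by contrast, averaged 13.12 ± 0.12 in LU, 13.11 ± 0.063 in HFD and 13.50 ± 0.081 in ND, a difference between LU and HFD of 0.01 ± 0.08.

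Outside complex I, Sdhc was higher by 0.40 ± 0.06 (adjusted p = 0.00215), Uqcrq, a small complex III subunit that binds ubiquinone, by 0.43 ± 0.09 (adjusted p = 0.00648), Uqcrc1 by 0.30 ± 0.07 and Cox4i1 by 0.29 ± 0.06. Uqcrq is dim, and its difference was 0.25 without background correction. Uqcrc2 was at 0.13 ± 0.06 (adjusted p = 0.159) and Atp5c1 at 0.07 ± 0.07 (adjusted p = 0.464). Atp5h was higher by 0.27 ± 0.07, a call lost without HFD array 2 (adjusted p = 0.0507) or LU array 3 (adjusted p = 0.067).

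Between LU and ND adipose tissue, the count depended on the processing. Of 74 members, 5 were higher and 8 lower in LU, against 17.6% and 15.6% of all genes, and the medians were -0.043 for members and 0.004 for all genes. The 5 include Cox6a2, undetected on all ND arrays, and the 8 include Ndufb11, which passed the filter through the ND arrays alone. For both the filter favoured the called direction. Without background correction Ndufb11 was at -0.11 in place of -0.36 and did not pass (limma, adjusted p = 0.0947). Those lower in LU included Atp5c1 (-0.39 ± 0.07, adjusted p = 0.00238), Ndufa10 (-0.38 ± 0.08, adjusted p = 0.00557) and Uqcrc2 (-0.34 ± 0.06, adjusted p = 0.00391). Ndufv1 differed by -0.01 ± 0.06 and Sdhc by 0.00 ± 0.06. A p that misses the threshold does not show equal levels, and the count of 13 fell to 6, 8 and 7 without LU arrays 1, 2 and 3. The count was 21 without background correction, 21 with trend and robust moderation and 23 in the authors' values. With median scaling 7 were higher and 4 lower.

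**Figure D2:**
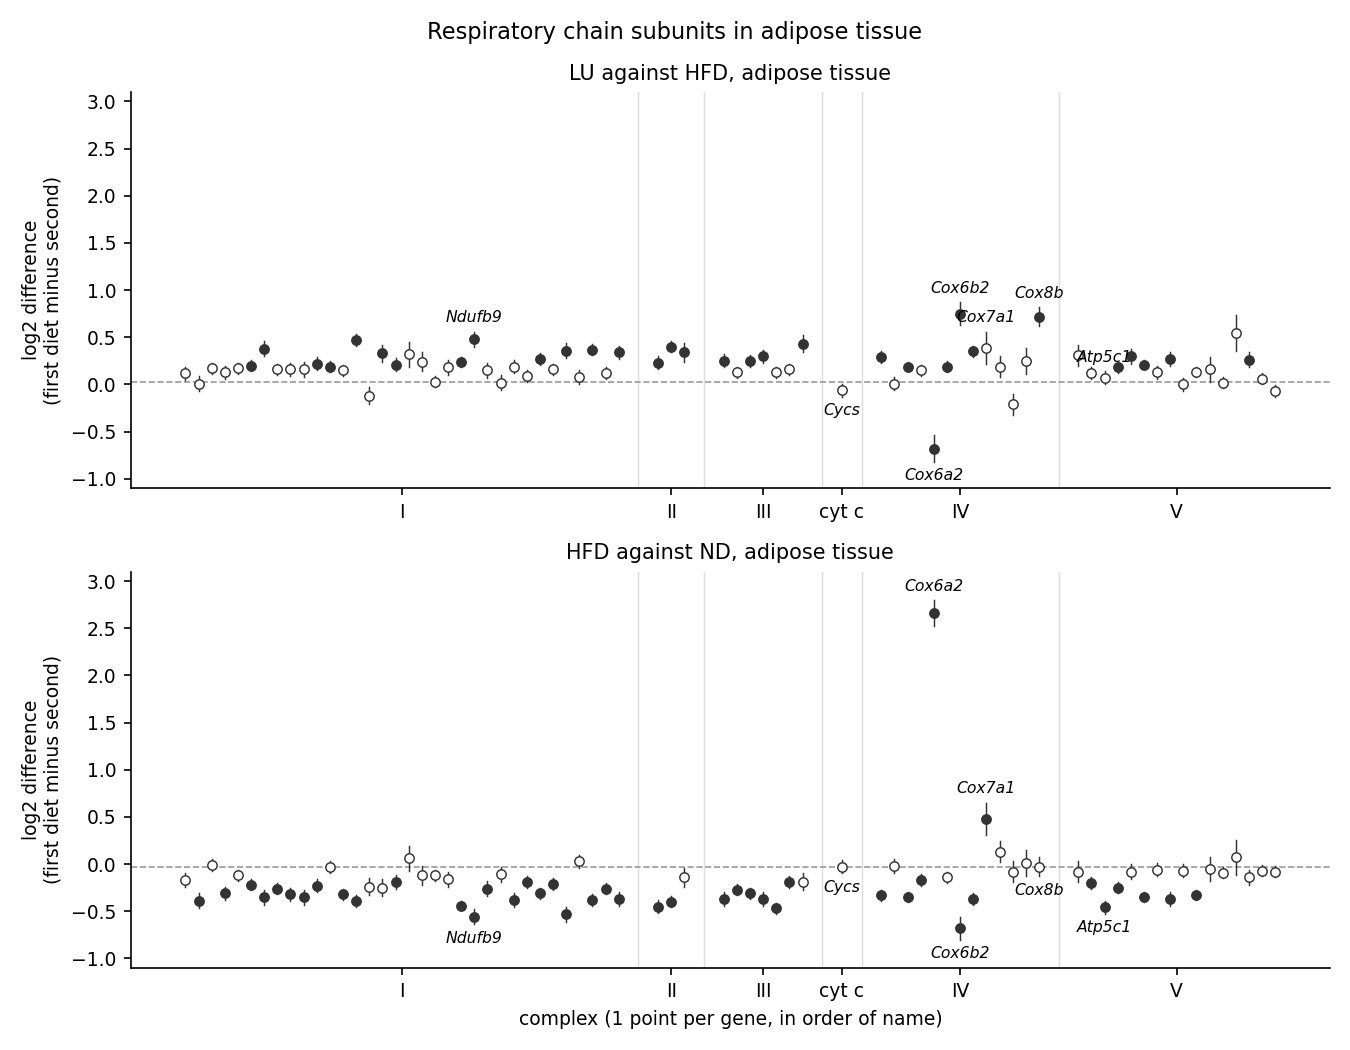
Log2 difference (y axis) of each of the 74 members tested in adipose tissue, grouped by complex along the x axis, LU against HFD above and HFD against ND below. Points are genes, bars are ± 1 SE, filled points passed an adjusted p of 0.05 and the dashed line is the median of all genes. Most points lie above the dashed line in the upper panel (31 higher, 1 lower) and below it in the lower panel (2 higher, 41 lower).

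Some isoforms of complex IV are known from heart, skeletal muscle or brown fat, and their values are given here with those of their widely expressed counterparts. Cox6a2, the heart and muscle form of subunit 6a, read 7.39, 7.57 and 7.73 in LU, 8.30, 8.48 and 7.96 in HFD and 5.64, 5.66 and 5.45 in ND adipose tissue. The 3 groups did not overlap, and the probe was undetected on all ND arrays, so it passed the filter through the other diets alone, and a difference from ND had to appear. It was at least 4.54-fold higher in HFD than in ND (adjusted p = 1.18e-06), at least 2.83-fold higher in LU than in ND (adjusted p = 2.08e-05), and lower by 0.68 ± 0.14 log2 units in LU than in HFD (adjusted p = 0.00543). These bounds set undetected ND values to the lowest signal called detected on the array. They hold for background-corrected signals. Without background correction the log2 differences were 1.15 in HFD against ND in place of 2.66, 0.76 in LU against ND in place of 1.98 and -0.40 in LU against HFD, and in the authors' values 1.23, 0.82 and -0.41, with the same calls. Its counterpart Cox6a1 was at 0.15 ± 0.06 in LU against HFD (adjusted p = 0.0955) and fell by 0.17 ± 0.06 in HFD against ND (adjusted p = 0.0454), a call lost without ND array 2 or 3 or HFD array 1, 2 or 3 (adjusted p = 0.0592 to 0.128) and with cyclic loess or median scaling (adjusted p = 0.0623 and 0.0587).

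Cox8b, the subunit 8 form of heart, muscle and brown fat in rodents, read 11.89, 11.93 and 12.07 in LU, 11.19, 11.36 and 11.19 in HFD and 11.44, 11.29 and 11.11 in ND. Only the LU arrays stood apart, above all others. It was 1.65-fold higher in LU than in HFD (0.72 ± 0.10, adjusted p = 0.00105) and 1.61-fold higher in LU than in ND (adjusted p = 0.000888), while HFD against ND was at -0.03 ± 0.10. Cox7a1, the muscle and brown fat form of subunit 7a, read 9.88, 9.88 and 9.93 in LU, 9.38, 9.59 and 9.56 in HFD and 9.30, 8.55 and 9.24 in ND. The 3 groups did not overlap, with ND array 2 well below the other ND arrays. Cox7a1 was higher by 0.87 ± 0.17 in LU than in ND (adjusted p = 0.00492) and by 0.48 ± 0.17 in HFD than in ND (adjusted p = 0.0446). The second call was lost without HFD array 1, 2 or 3 (adjusted p = 0.0555, 0.122 and 0.104) and with no detection filter (adjusted p = 0.0593). Cox7a2, its counterpart, was at 0.13 ± 0.11 in HFD against ND (adjusted p = 0.367). In LU against ND Cox7a2 was higher too, by 0.32 ± 0.11 (adjusted p = 0.0476), a call lost without ND array 2 or 3 or LU array 1, 2 or 3 (adjusted p = 0.0609 to 0.119), with no detection filter (adjusted p = 0.0636) and with the HFD arrays left out of the fit (adjusted p = 0.0867).

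Cox6b2, a form of subunit 6b known from testis, was low in adipose tissue, at 7.13, 7.06 and 6.92 in LU, 6.31, 6.06 and 6.49 in HFD and 7.15, 6.87 and 6.90 in ND, and was detected on 2 of the 3 HFD arrays. It was higher by 0.75 ± 0.12 in LU than in HFD (adjusted p = 0.00217) and lower by 0.68 ± 0.12 in HFD than in ND (adjusted p = 0.00147). Without background correction these differences were 0.28 and -0.25, and in the authors' values 0.30 and -0.27. Cox6b1, its widely expressed counterpart, was at -0.14 ± 0.06 in HFD against ND (adjusted p = 0.0686).

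Marker genes of skeletal muscle and of brown and beige fat moved in both directions in HFD against ND. Of 8 skeletal muscle markers on the array 5 were tested in adipose tissue, and their summed level was 1094 to 1180 in LU, 1223 to 1626 in HFD and 728 to 887.9 in ND. In HFD against ND, Pvalb, the calcium buffer parvalbumin, rose by 3.59 ± 0.18 and Tnni2, a fast troponin, by 0.82 ± 0.16, whereas the enolase Eno3 fell by 0.63 ± 0.14 and Actn3 by 0.35 ± 0.11. Myh7, Tnnt3 and Atp2a1 did not pass the detection filter. In LU against HFD, Pvalb fell by 1.07 ± 0.18 and Eno3 rose by 0.70 ± 0.14. Of the brown and beige fat markers, Ucp1, the uncoupling protein that defines brown fat, Dio2, Elovl3 and Tbx1 did not pass the filter in adipose tissue, and the list includes the members Cox7a1 and Cox8b. Of 8 tested, 2 rose and 3 fell in HFD against ND, where 21.5% of all genes rose and 23.9% fell. In LU against HFD 4 rose and 0 fell, where 16.3% of all genes rose and 15.5% fell. Cidea fell by 1.36 ± 0.18 and Cpt1b rose by 1.33 ± 0.08 in HFD against ND. The part of these cells in the isoform values was not tested.

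**Figure D3:**
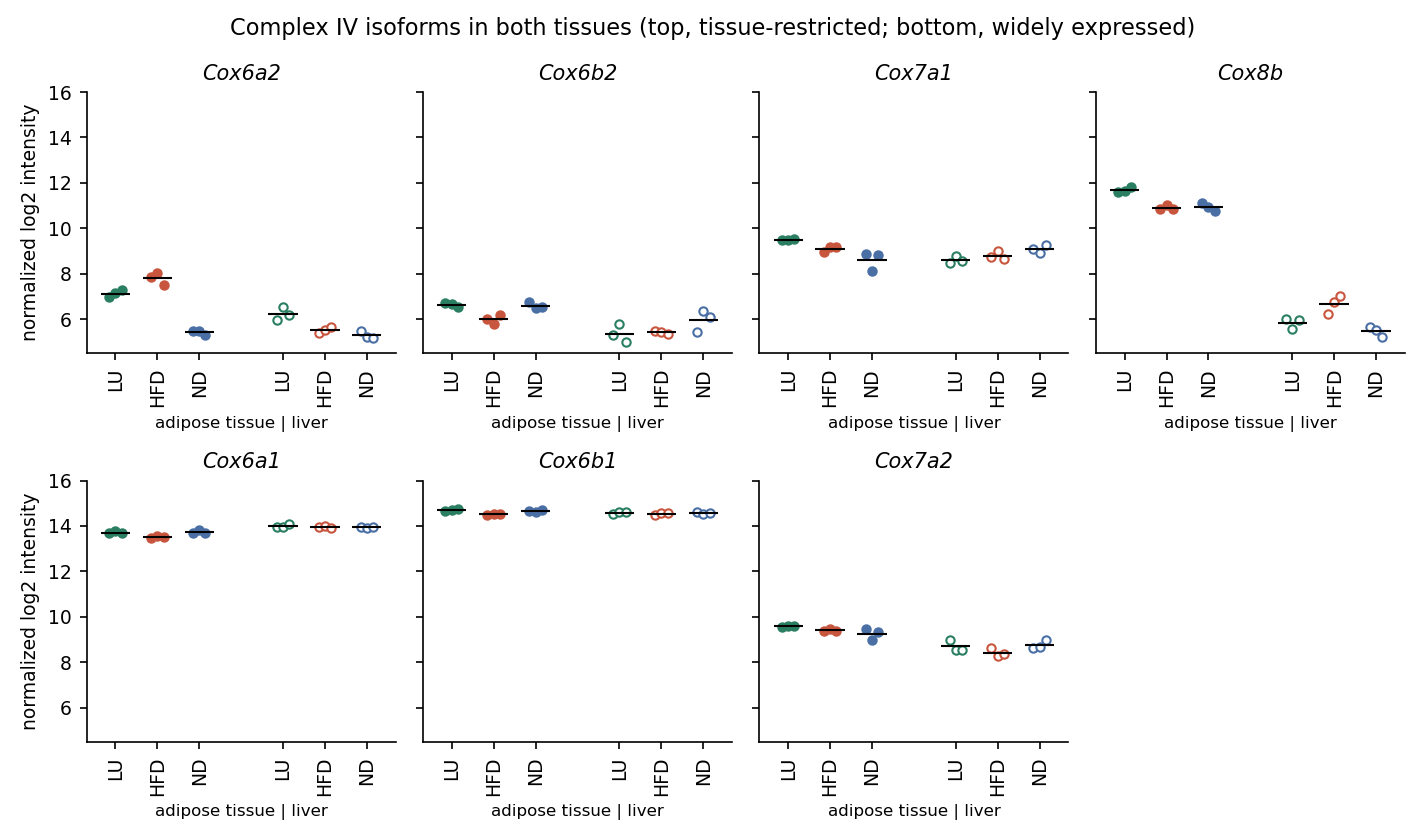
Normalized log2 intensity (y axis) of complex IV isoforms on each of the 18 arrays, normalized together, adipose tissue (filled) left of liver (open) and LU, HFD and ND from left to right. Points are arrays and bars are means of 3. Among the adipose tissue groups Cox6a2 is lowest in ND, Cox8b is far higher in adipose tissue than in liver, and Cox6a1 and Cox6b1 lie between 13.48 and 14.73 on all arrays.

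Other cell types also changed between diets in adipose tissue, and in bulk tissue fewer cells of a type and less RNA per cell cannot be told apart. Of 16 macrophage markers tested, 15 rose and 0 fell in HFD against ND (median 1.61), and their summed level was 151800 to 167500 in LU, 194900 to 231300 in HFD and 72830 to 84170 in ND. In LU against HFD 13 fell and 0 rose (median -0.59). Among all genes 21.5% rose and 23.9% fell in HFD against ND, and 16.3% rose and 15.5% fell in LU against HFD. Trem2, a receptor of lipid-laden macrophages, was higher by 4.23 ± 0.19 in HFD than in ND and lower by 0.83 ± 0.19 in LU than in HFD. Itgax was undetected on the ND arrays.

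White adipocyte markers took the other direction. Of 14 tested, 9 fell and 1 rose in HFD against ND (median -0.34), where 23.9% of all genes fell and 21.5% rose. In LU against HFD 6 rose and 0 fell (median 0.20), where 16.3% of all genes rose and 15.5% fell. Summed levels of the adipocyte markers were 363500 to 366400 in LU, 334900 to 349900 in HFD and 350800 to 363700 in ND. Those of the respiratory chain members were 695900 to 708000 in LU, 617000 to 629200 in HFD and 725200 to 742700 in ND. The lipase Lipe fell by 0.58 ± 0.10 in HFD against ND, and the leptin gene Lep rose by 0.69 ± 0.10. Of 8 mesothelium markers 6 fell in HFD against ND, and in LU against HFD 2 rose and 4 fell (median -0.44), with summed levels of 2349 to 2545 in LU, 2500 to 3166 in HFD and 3913 to 4153 in ND. Of the 6 hepatocyte markers that passed in adipose tissue, 1 rose and 3 fell in HFD against ND, and 4 rose and 1 fell in LU against HFD. Their summed level was 37060 to 44940 in LU, 21070 to 26440 in HFD and 62630 to 62720 in ND. Among them Cyp2e1 fell by 1.48 ± 0.10 and Pck1, which adipose tissue also uses in glycerol synthesis, by 1.39 ± 0.13 in HFD against ND. The part of these cell types in the subunit values was not tested.

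Genes that build or regulate the chain were read from lists of 43 assembly factors and 21 regulators. Of 35 assembly factors tested in adipose tissue, 12 fell and 1 rose in HFD against ND (median -0.11), where 23.9% of all genes fell, among them Ecsit of complex I assembly (-0.57 ± 0.07) and Surf1 of complex IV assembly (-0.44 ± 0.07). In LU against HFD 5 rose and 1 fell (median 0.09), where 16.3% of all genes rose, with Ecsit higher by 0.33 ± 0.07. Of 20 regulators, 8 fell and 2 rose in HFD against ND, and 8 rose and 2 fell in LU against HFD. Ppargc1a, the coactivator PGC-1 alpha, fell by 0.86 ± 0.12 in HFD against ND and was higher by 0.77 ± 0.12 in LU than in HFD. Polg2 and Twnk of mitochondrial DNA replication fell by 0.70 ± 0.08 and 0.65 ± 0.16 in HFD against ND. Esrrg, an oestrogen-related receptor, rose by 0.57 ± 0.15, and Nrf1 was at 0.01 ± 0.07.

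Members with and without the NRF1 motif were set side by side, with no test. In HFD against ND adipose tissue, 10 of 19 members with the motif fell (median -0.17), and so did 23 of 43 whose promoter lacked it (median -0.20). In LU against HFD, 7 of 19 with the motif rose (median 0.16) and 15 of 43 without it (median 0.18). Cycs, whose printed window holds the motif, did not pass in either comparison, and Cox8b, whose window lacks it, was higher in LU.

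Liver showed a smaller and more mixed picture. In HFD against ND, 10 of 69 members tested fell and 2 rose, and among all 8937 genes 12.4% fell and 17.9% rose. The medians were -0.083 for members and 0.001 for all genes. By complex, 5 of 33 of complex I, 0 of 3 of complex II, 1 of 7 of complex III, Cycs, 1 of 10 of complex IV and 2 of 15 of complex V fell. The 2 that rose had dim probes, Cox7b (0.52), detected on 1 of 3 ND arrays, and Atp5md (0.44), undetected in ND. Atp5md passed the filter through the LU arrays alone. Without background correction they were at 0.18 (limma, adjusted p = 0.0674) and 0.17 (adjusted p = 0.0431). With a stricter detection filter (p under 0.01 on all 9 arrays) 0 rose and 11 fell. The count of 12 fell to 5 and 7 without ND arrays 2 and 3, and to 6 and 5 without HFD arrays 2 and 3. With median scaling 3 fell and 3 rose, in a setting where the median of all genes itself shifted to 0.115.

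Cycs, the electron carrier, read 12.42, 12.60 and 12.47 in LU, 12.64, 12.59 and 12.62 in HFD and 12.85, 12.92 and 13.01 in ND livers. The ND arrays lay above all others, and the LU and HFD arrays overlapped. It fell by 0.31 ± 0.07 in HFD against ND (adjusted p = 0.0117) and was lower by 0.43 ± 0.07 in LU than in ND (adjusted p = 0.00159). Of complex I, Ndufa12, an accessory subunit, averaged 11.14 ± 0.115 in LU, 11.19 ± 0.023 in HFD and 11.55 ± 0.049 in ND, a fall of 0.36 ± 0.07 in HFD against ND (adjusted p = 0.00552). Ndufs7 fell by 0.28 ± 0.06 (adjusted p = 0.00571) and was higher by 0.24 ± 0.06 in LU than in HFD (adjusted p = 0.0234), although this rise was lost without HFD array 1 or 3 or LU array 1, 2 or 3 (adjusted p = 0.0534 to 0.0788) and with median scaling (adjusted p = 0.134). The core subunits Ndufv1, Sdhb, Uqcrc1, Cox4i1 and Atp5b differed by -0.02 to -0.08 and did not pass. The preset core members Cyc1, Cox5a and Atp5a1 averaged 12.45, 14.21 and 8.92 in HFD and 12.64, 14.24 and 8.93 in ND livers. They did not pass either, and Cyc1 differed by more than the range above.

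Of the 41 members that fell in adipose tissue of HFD against ND, 40 were tested in liver and 4 fell there too, Atp5h, Ndufa12, Ndufa5 and Ndufs7. That is 9.76% of the adipose tissue list and 40% of the 10 in the liver list. Among all genes, 319 of the 2077 that fell in adipose tissue and were tested in liver fell there too (15.4%). The liver call of Atp5h was lost without ND array 1, 2 or 3 or HFD array 2 or 3 (adjusted p = 0.0605 to 0.162), and with median scaling (adjusted p = 0.272). Atp5h and Ndufa5 are named here for this overlap, chosen after their values were seen.

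In LU against HFD livers, 8 of 69 members rose and 2 fell, against 8.41% and 8.66% of all genes, and the medians were 0.073 and 0.026. The count of 10 fell to 4 and 3 without HFD arrays 2 and 3, and to 5 and 3 without LU arrays 1 and 3. Median scaling left 2 that rose and 2 that fell. The largest rises past the threshold came from the dim probes of Atp5md (0.60), Ndufb4 (0.56) and Atp5e (0.41). Without background correction they were 0.21, 0.22 and 0.20, with the same calls. Atp5md passed the filter through the LU arrays alone. Ndufa6, an accessory subunit of complex I, rose by 0.29 ± 0.06 (adjusted p = 0.0132; 0.0596 with median scaling), as read from 13.72, 13.78 and 13.74 in LU, 13.47, 13.41 and 13.47 in HFD and 13.61, 13.55 and 13.65 in ND. The 3 diets did not overlap.

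The 2 members that fell in LU livers are a stalk subunit and an assembly factor. Atp5pb, the peripheral stalk subunit b of complex V, read 11.49, 11.59 and 11.39 in LU, 11.93, 11.83 and 11.96 in HFD and 12.08, 12.13 and 12.09 in ND. The groups did not overlap and were lowest in LU. It fell by 0.42 ± 0.07 in LU against HFD (adjusted p = 0.00678) and by 0.61 ± 0.07 in LU against ND (adjusted p = 0.000241). Cox7a2l, the supercomplex factor, read 10.84, 10.89 and 10.68 in LU, 11.07, 11.11 and 11.11 in HFD and 11.29, 11.48 and 11.32 in ND. It was lower by 0.56 ± 0.08 in LU than in ND (adjusted p = 0.000572) and by 0.29 ± 0.08 in LU than in HFD (adjusted p = 0.0327). The second call was lost without HFD array 1, 2 or 3 or LU array 1 or 3 (adjusted p = 0.0669 to 0.103).

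Compared with ND livers, 9 of 69 members were higher and 10 lower in LU, against 23.7% and 17.4% of all genes, and the medians were -0.011 and 0.031. With cyclic loess 6 were higher and 13 lower, and with median scaling 6 and 12. Of those higher in LU, Ndufb4, Atp5md and Cox7b had dim probes. Ndufb4 read 6.63, 6.45 and 7.04 in LU, 6.39, 6.02 and 6.02 in HFD and 5.72, 5.72 and 5.79 in ND, where it was undetected on all arrays, so it passed through the other diets alone and a difference from ND had to appear. It was at least 1.65-fold higher in LU than in ND (adjusted p = 0.00106). Atp5md, a small membrane subunit of complex V, was likewise undetected in ND and passed the filter through the LU arrays alone, so that here too a difference had to appear. It was at least 1.22-fold higher in LU (adjusted p = 0.000227). Cox7b was detected on 1 of 3 ND arrays and was higher by 0.98 ± 0.17 in LU than in ND (adjusted p = 0.00176). Without background correction these 3 differences were smaller, at 0.36 for Ndufb4, 0.38 for Atp5md and 0.37 for Cox7b, with the same calls. The brighter Uqcrh and Cyc1 of complex III were lower in LU than in ND, by 0.32 ± 0.07 and 0.29 ± 0.07.

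Macrophage markers also rose in liver, 12 of 14 tested in HFD against ND (median 0.91), with a summed level of 26280 to 33630 in LU, 21770 to 27210 in HFD and 10250 to 11750 in ND. Hepatocyte markers summed to 494700 to 499100 in LU, 496200 to 499500 in HFD and 504700 to 516800 in ND. Of 10 endothelium markers 7 rose and 0 fell in HFD against ND (median 0.35), and 8 fell and 0 rose in LU against HFD (median -0.49). Their summed levels were 7861 to 8088 in LU, 9973 to 11250 in HFD and 7197 to 7647 in ND. Among all genes tested in liver 17.9% rose and 12.4% fell in HFD against ND. In LU against HFD 8.41% rose and 8.66% fell. Of 8 white adipocyte markers tested in liver, 5 rose and 1 fell in HFD against ND (median 0.73). Their summed levels were 25260 to 26790 in LU, 20980 to 24930 in HFD and 10200 to 12650 in ND. Adipoq, Lep, Retn, Plin1, Fabp4 and Slc2a4 of this list did not pass the filter in liver, so these counts do not show a rise in adipocytes. Of 34 assembly factors tested in liver 6 rose in HFD against ND, among them Cox19 (0.56 ± 0.11) and Acad9 (0.48 ± 0.08), and 1 fell, where 17.9% of all genes rose. Of 20 regulators 4 fell and 0 rose, with Ppargc1a lower by 0.80 ± 0.18. The part of these cells in the liver values was not tested.

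**Figure D4:**
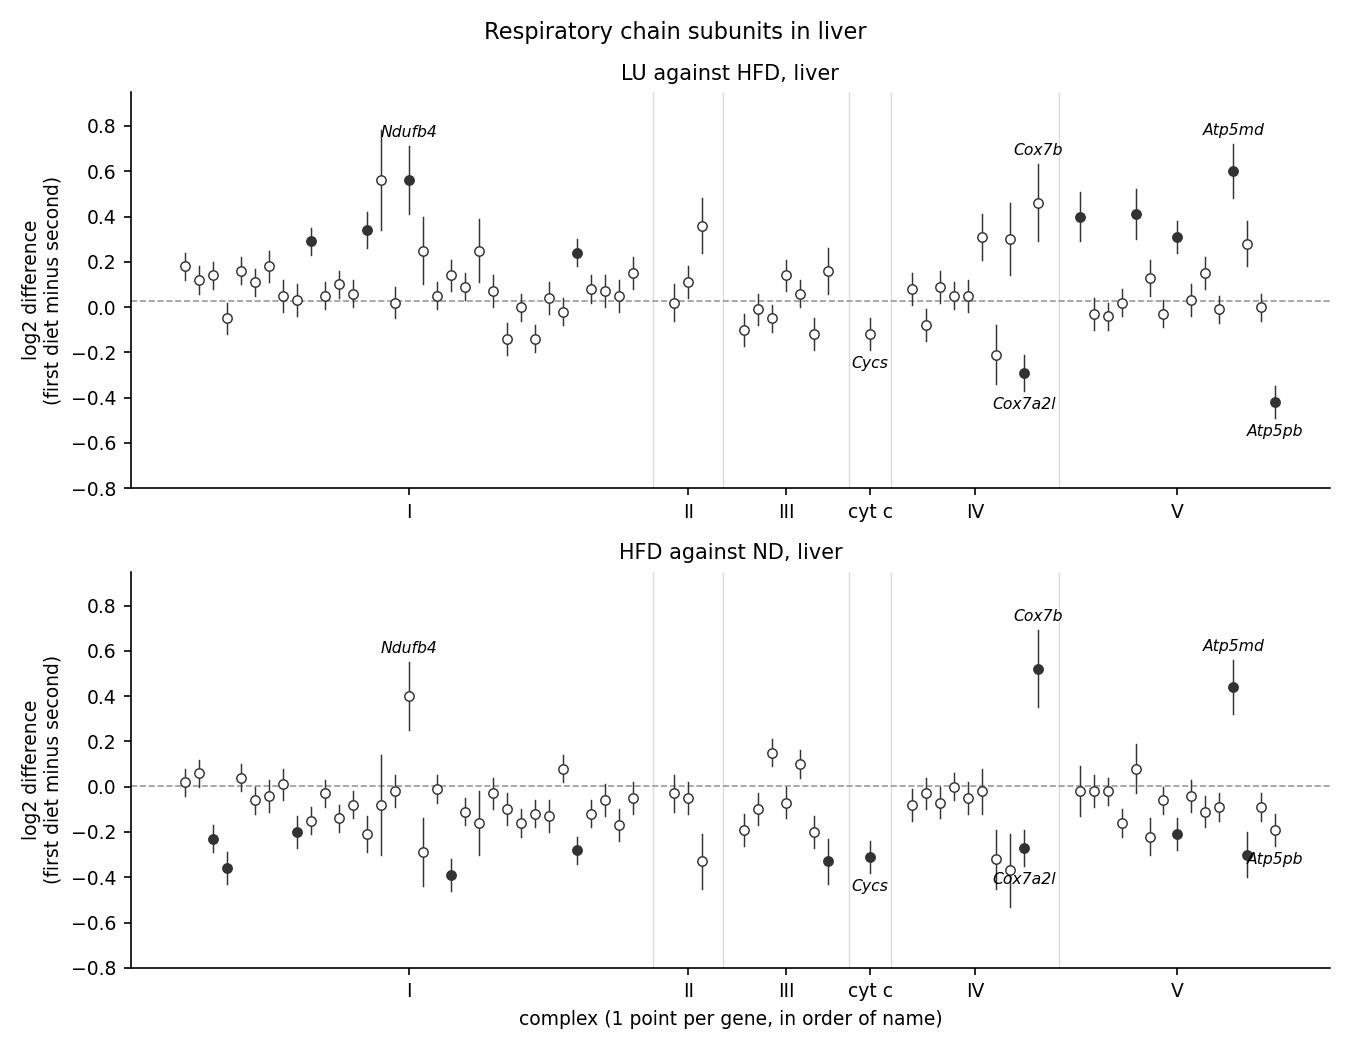
Log2 difference (y axis) of each of the 69 members tested in liver, grouped by complex along the x axis, LU against HFD above and HFD against ND below. Points are genes, bars are ± 1 SE, filled points passed an adjusted p of 0.05 and the dashed line is the median of all genes. Few points are filled (8 higher and 2 lower above, 2 higher and 10 lower below), and they lie between -0.42 and 0.60.

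The diet differences were set against each other between tissues in 1 model over all 18 arrays. For HFD against ND, 22 of 74 members had a lower difference in adipose tissue than in liver and 2 a higher one, against 18.1% and 13.3% of all genes, and the medians were -0.19 for members and -0.043 for all genes. With cyclic loess 13 were lower and 3 higher. Among the members that passed, Uqcrc2 of complex III was at -0.62 ± 0.08 (adjusted p = 5.71e-05). In liver it averaged 14.24 ± 0.022 in LU, 14.19 ± 0.018 in HFD and 14.09 ± 0.031 in ND (SD, n = 3 each), with a difference between HFD and ND of 0.10 ± 0.06. Ndufa10 was at -0.51 ± 0.10 (adjusted p = 0.00156) and Atp5c1 at -0.47 ± 0.09 (adjusted p = 0.000831).

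For LU against HFD, 7 of 74 members had a higher difference in adipose tissue than in liver and 1 a lower one, against 7.22% and 8.43% of all genes, with medians of 0.126 and 0.007. The count of 8 fell to 5 without liver HFD array 1, adipose tissue HFD array 1 or adipose tissue LU array 2, and to 4 without liver LU array 1 or adipose tissue LU array 3. Ndufv1 was among them at 0.37 ± 0.08 (adjusted p = 0.00548).

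Adipose tissue and liver differed in the level of most subunits on each diet, as they did for most genes, in both directions. On LU, 25 of 74 members were higher and 36 lower in adipose tissue, against 46.4% and 38.3% of 10764 genes. On HFD, 21 were higher and 42 lower, against 46.9% and 38.4%. On ND, 27 were higher and 37 lower, against 47.4% and 38.2%. Cyclic loess, another normalization, gave 19 higher and 47 lower on LU and 21 higher and 51 lower on ND. The members' median was -0.143 on LU, -0.306 on HFD and -0.142 on ND, against 0.114, 0.138 and 0.139 over all genes. The sign of small tissue differences depended on the scaling, and median scaling placed the median of all genes at 0.507 to 0.612.

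Across the 3 diets, 20 of 74 members were higher in adipose tissue on every diet and 33 were lower on every diet, against 41% and 32.4% of all genes. These counts use the brightest probe of each gene. Ndufs4 is among the 33, but another of its probes had unnormalized signals of 1541.68 to 2170.68 in liver and 4328.53 to 5658.62 in adipose tissue. Its further probes also read higher there. With all detected probes, 66 members were called on ND, 32 higher and 41 lower, so some were called both ways. Ndufb11, Cox6a2, Cox6b2, Cox8b and Atp5k did not pass the filter in liver and entered the joint model through adipose tissue alone. For them the filter favoured a higher value in adipose tissue, and Cox6b2, Cox8b and Atp5k are among the 20. In complex III, 5 of 7 genes on LU, 7 of 7 on HFD and 4 of 7 on ND were called lower in adipose tissue and 0 higher. Uqcrq averaged 7.64 ± 0.082, 7.21 ± 0.12 and 7.40 ± 0.123 in adipose tissue of LU, HFD and ND mice, against 9.39 ± 0.091, 9.24 ± 0.051 and 9.56 ± 0.18 in their livers (SD, n = 3 each). The tissues were separate on every diet, by -1.75 ± 0.09 on LU, -2.03 ± 0.09 on HFD and -2.16 ± 0.09 on ND. On HFD the Uqcrq difference was -1.30 without background correction, and on LU it was -1.11 with median scaling. Cyc1 differed by -0.88 ± 0.07 on LU, -1.23 ± 0.07 on HFD and -1.01 ± 0.07 on ND.

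Other complexes were split. In complex II, Sdhd was higher in adipose tissue by 1.97 ± 0.13 on LU, 2.01 ± 0.13 on HFD and 1.79 ± 0.13 on ND, while Sdhc was lower by 0.55 ± 0.06, 0.88 ± 0.06 and 0.49 ± 0.06. In complex V, Atp5a1 was higher by 1.61 ± 0.11 on LU, 1.66 ± 0.11 on HFD and 1.73 ± 0.11 on ND, while Atp5mpl, a small subunit, was lower by 1.55 ± 0.08, 1.48 ± 0.08 and 1.68 ± 0.08. In complex I, Ndufb10 was higher in adipose tissue by 1.37 ± 0.07 on LU, 1.16 ± 0.07 on HFD and 1.39 ± 0.07 on ND. These directions held with cyclic loess and with median scaling, for the probes used here. Another Atp5a1 probe had unnormalized signals of 254.504 to 355.609 in liver and 322.001 to 422.319 in adipose tissue. Those of the Atp5a1 probe used were 527.466 to 757.33 and 2620.43 to 3888.35, so the large difference of this gene rests on that probe. Without background correction Atp5mpl was lower by 0.65, 0.57 and 0.70 on LU, HFD and ND, and Sdhd higher by 1.27 on HFD, and with cyclic loess Sdhc was lower by 0.77 on ND.

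Cox8b had the largest tissue difference of the members. Its adipose tissue values averaged 11.69 ± 0.102 on LU, 10.91 ± 0.109 on HFD and 10.95 ± 0.173 on ND, and it was undetected on all LU and ND liver arrays and detected on 2 of 3 HFD liver arrays. Adipose tissue was at least 42.0-fold higher on LU and at least 22.0-fold higher on ND, and higher by 4.24 ± 0.18 on HFD (adjusted p = 1.16e-12). Cox6a2 was at least 2.86-fold higher in adipose tissue than in liver on HFD and higher by 0.90 ± 0.15 on LU, where it was detected on 1 of 3 liver arrays, and was undetected in both tissues on ND. Both genes passed the filter through adipose tissue alone, which favoured a higher value in that tissue. Their sizes depend on the background correction. Without it Cox8b differed by 3.43 on ND in place of 5.49. Cox6a2 then differed by 0.92 on HFD in place of 2.27 and by 0.34 on LU. Cox7a1 was called higher in adipose tissue on LU (0.90 ± 0.17, or 1.52 with median scaling) and lower on ND (-0.49 ± 0.17). With 1 probe per gene it was the sole member called in opposite directions on different diets. The ND difference was 0.23 with median scaling, against the main direction. The ND call was also lost without liver ND array 3 (adjusted p = 0.0518), without adipose tissue ND array 2 (adjusted p = 0.0795) and with cyclic loess (adjusted p = 0.0526).

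**Figure D5:**
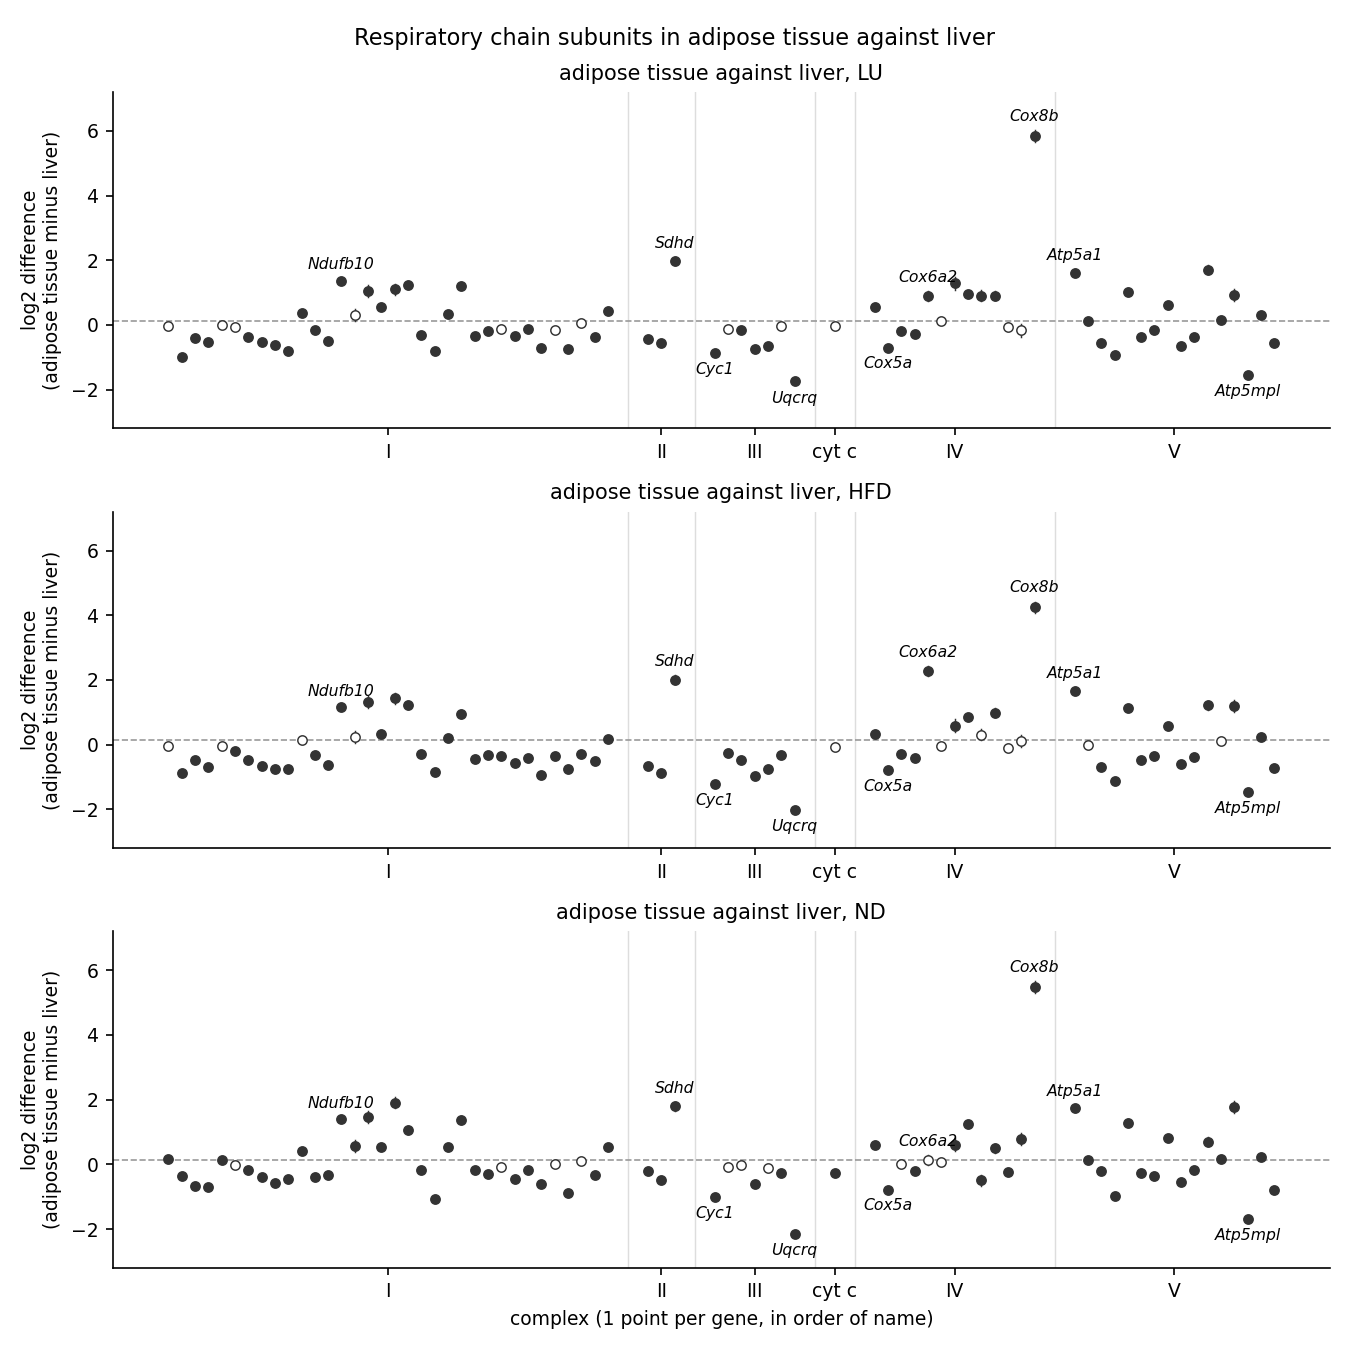
Log2 difference between adipose tissue and liver (y axis) of each of the 74 members tested in the joint model, grouped by complex along the x axis, on LU, HFD and ND from top to bottom. Points are genes, bars are ± 1 SE, filled points passed an adjusted p of 0.05 and the dashed line is the median of all genes. Cox8b stands highest in each panel, at 5.84, 4.24 and 5.49, and Uqcrq lowest, at -1.75, -2.03 and -2.16.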

How the data were processed

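Per the labels, 550 ng of total RNA from each sample was turned into biotin-labelled cRNA. The software in the submitters' processing notes is GenomeStudio 2009.2 with R 2.4.1. Per the file headers, the deposited tables give an intensity and a detection p-value for each of 45281 probes on each array, without normalization. The authors' deposited matrix gives log2 values, at r of 0.9996 or above with the scanner signals, normalized by a method not given in the sources used here, and served as an alternative. Gene names came from the platform annotation, which covers probes of that matrix. The 14 RefSeq genes that fit the symbols but had no named probe were not analysed here.

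R 4.3.3 with limma 3.58.1 was used. The neqc function estimated background from the detection p-values, added an offset of 16, applied quantile normalization to the 9 arrays of a tissue (all 18 for tissue comparisons) and took log2. A probe was kept when 3 of 3 arrays in some diet had a detection p below 0.05, and the brightest one stood for its gene. One linear model covered the diets of a tissue, or all 6 groups, with moderated variances. Benjamini-Hochberg adjustment ran over all genes tested, at a threshold of 0.05. For a bound, an undetected group was set, per array, to the higher of its own value and the lowest detected signal. With 3 arrays a group, precision is limited by their number. The fit was tested on simulated data.

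Members, lists, markers and motifs were chosen with earlier results of these data known. Genes named are up to 4 per complex with the largest difference past the threshold, preset core members, tissue-restricted isoforms with their counterparts, members not detected, and up to 4 of each other list. A named gene's value in a comparison where this rule did not pick it was chosen after its values were seen. Deviations of arrays with the same replicate number correlated at -0.081 to 0.098 in adipose tissue and -0.155 to 0.192 in liver. Between tissues the range was -0.082 to 0.135. With so few arrays a group, these values cannot show whether the numbers pair the samples. The main model left the samples unpaired. Other settings are in the closing section.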

Additional observations from a re-analysis of the deposited data

Results flagged for a closer look

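The diet difference in adipose tissue was tested against that in liver as an interaction in the limma model over all 18 arrays, with Benjamini-Hochberg adjustment. In HFD against ND 24 of 74 members passed, 22 lower (29.7%) and 2 higher (2.7%), against 18.1% and 13.3% of all genes. In LU against HFD 8 of 74 passed, 7 higher (9.46%) and 1 lower (1.35%), against 7.22% and 8.43% of all genes. The 23 values given here are those of the genes that the rule for named genes chose, and the others are not listed. Each value is the adipose tissue difference minus the liver difference, in log2 units with its SE.

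For HFD against ND in complex I, the values were -0.51 ± 0.10 for Ndufa10, -0.39 ± 0.08 for Ndufv1, -0.37 ± 0.09 for Ndufv3 and -0.37 ± 0.10 for Ndufs7. In complex II they were -0.45 ± 0.09 for Sdhb and -0.39 ± 0.09 for Sdhc. In complex III they were -0.62 ± 0.08 for Uqcrc2, -0.46 ± 0.08 for Uqcr11 and -0.36 ± 0.09 for Uqcrc1. In complex V they were -0.47 ± 0.09 for Atp5c1 and -0.22 ± 0.08 for Atp5j2 (adjusted p = 0.0439). These 11 subunits fell further in adipose tissue, or fell there without a called change in liver.

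In complex IV the same contrast gave -0.40 ± 0.11 for Cox6c, 2.13 ± 0.21 for Cox6a2, 0.79 ± 0.23 for Cox7a1 and -1.25 ± 0.25 for Cox8b. Cox6a2 was detected on 0 of 3 HFD and 0 of 3 ND liver arrays and on 0 of 3 ND adipose tissue arrays. Cox8b was detected on 2 of 3 HFD and 0 of 3 ND liver arrays, where it averaged 6.67 ± 0.415 and 5.46 ± 0.225, and in adipose tissue it differed by -0.03 ± 0.10 between HFD and ND.

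For LU against HFD, the values were 0.37 ± 0.08 for Ndufv1, 0.27 ± 0.08 for Ndufs5-ps, 0.33 ± 0.09 for Sdhc, 0.36 ± 0.10 for Cyc1, 0.31 ± 0.08 for Uqcr11 and 0.28 ± 0.09 for Uqcrh. Cox8b had 1.60 ± 0.25 and Cox6a2 -1.37 ± 0.21, again with liver probes at or near background. Without background correction the HFD against ND values were 0.86 for Cox6a2 and -0.46 for Cox8b, and the LU against HFD values -0.58 for Cox6a2 and 1.03 for Cox8b. With cyclic loess the HFD against ND values of Ndufs7 and Uqcrc1 were -0.20 and -0.22 and no longer passed (adjusted p = 0.125 and 0.068). For HFD against ND, the call of Atp5j2 was lost without liver ND array 2 or 3, liver HFD array 1 or 2, adipose tissue ND array 1 or 3 or adipose tissue HFD array 1, 2 or 3 (adjusted p = 0.0533 to 0.104). For LU against HFD, that of Sdhc was lost without adipose tissue LU array 3 (adjusted p = 0.0515), and that of Uqcr11 without liver LU array 1, adipose tissue HFD array 2 or adipose tissue LU array 2 (adjusted p = 0.0507 to 0.0545). That of Cyc1 was lost without liver HFD array 1 or 2, liver LU array 1, adipose tissue HFD array 1 or adipose tissue LU array 3 (adjusted p = 0.0511 to 0.0629). Those of Ndufs5-ps and Uqcrh were lost with most arrays left out in turn, 10 and 9 of 12 (adjusted p = 0.0506 to 0.0809 and 0.0593 to 0.102). Both contrasts use the same HFD arrays.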

How the results depend on the processing

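The members' counts kept within 1.5 times of the main count under most settings. In HFD against ND livers the 12 called members became 6 with median scaling and 20 with trend and robust moderation. In LU against HFD livers the 10 became 4 with median scaling. In LU against ND adipose tissue the 13 became 21 without background correction, 21 with trend and robust moderation and 23 in the authors' values. Leaving out 1 array gave 5 to 8 of 12 for HFD against ND livers, 3 to 11 of 10 for LU against HFD livers, 6 to 16 of 13 for LU against ND adipose tissue, 19 to 23 of 32 for LU against HFD adipose tissue and 4 to 8 of 8 for its interaction with tissue.

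With a replicate block, 37 members were called for HFD against ND and 25 for LU against HFD in adipose tissue, and 8 in each of these comparisons in liver. No source used here says whether the numbers pair the samples.

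Signs of 16 tissue differences (adipose tissue minus liver) reversed with the scaling, and the cause was not tested. With cyclic loess, ND values were -0.14 for Atp5b, -0.33 for Cox6a2, which was undetected in both tissues on ND so that its sign carries no information, -0.33 for Cox6b1 and -0.31 for Ndufv1. LU values were -0.22 for Atp5b, -0.20 for Cox6b1 and -0.26 for Ndufv1, and the HFD value of Cox4i1 was -0.04. With median scaling, ND values were -0.28 for Atp5b, -0.30 for Cox6b1, 0.23 for Cox7a1, -0.16 for Ndufv1 and 0.15 for Sdhb. LU values were -0.30 for Atp5b and 0.55 for Cox7b, and the HFD value of Cox4i1 was -0.03. A block for the chip was not run, since the headers name none. Dim probes such as Cox6a2, Cox6b2 and Ndufb4 carry the least certain sizes.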
